A study of Mus musculus with 6 samples.

Results

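Genes that encode SoxD, SoxE and SoxC transcription factors were followed in 6 ChIP-seq libraries, 1 per condition, made to map the binding of Bapx1 and Sox9. The members were picked by family. The rule uses no measured value, although it was chosen with earlier results of these data known. Sox13, also of SoxD, and Sox9, also of SoxE, are not members, so densities of SoxD and SoxE are those of the members alone. The members are Sox5 and Sox6 (SoxD), Sox8 and Sox10 (SoxE), and Sox4, Sox11 and Sox12 (SoxC), which makes 7 of the 22225 protein-coding genes in the annotation. For each of them the gene body on mm9 and 100 kb on either side were examined, which amounts to 2.95 Mb in all.

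The embryo libraries came from the CD1 strain at E12.5. Bapx1, a homeodomain factor of the developing axial skeleton and spleen, was tagged with S-peptide at its own gene and precipitated with the S-peptide antibody from vertebral columns, and its control was the same antibody on vertebral columns of wildtype embryos. Sox9 was precipitated from wildtype embryos with an anti-Sox9 antibody, and its control was IgG. The labels name the vertebral column as the source of both, but for the Sox9 pair they list the limb as well. In NIH3T3, a mouse fibroblast line, V5-tagged Bapx1 was overexpressed and precipitated with the V5 antibody, and the control is described in the labels both as cells with the empty pcDNA6 vector and as wild type 3T3. Every embryo library was made from chromatin pooled over many embryos, so 1 library stands for each condition. No spread between replicates exists, no test between conditions was possible, and the intervals given here are exact 95% intervals that cover counting error only. ChIP-seq measures DNA bound by the factor and not the transcripts of these genes, so no statement on their expression is made.

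Sox proteins bind DNA through a high-mobility-group domain that recognises short AT-rich sites and bends the helix. Sox9 is a SoxE protein and is needed for chondrocyte specification, and Sox8 and Sox10, its closest relatives, are best known from neural crest and glia, with Sox8 also expressed in cartilage and gonad. Sox5 and Sox6 carry no activation domain of their own, form dimers through a coiled coil, and work with Sox9 on cartilage matrix genes such as Col2a1 and Acan. Sox4, Sox11 and Sox12 are activators of progenitor cells in neural and mesenchymal tissue. Sox5 and Sox6 are long and have several transcript starts, whereas the SoxE and SoxC members are short.

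The libraries held between 9115805 and 24853758 tags on chromosomes 1 to 19, X and Y. The deposited lists held 2815 peaks for Bapx1 in the embryo, 23205 for Bapx1 in NIH3T3 and 3722 for Sox9. The tags and peaks of the Sox9 pair did not lie at mm9 positions although the labels name mm9, and they were displaced by a distance that differs from place to place. The displacement was measured by sliding the tags of the Sox9 pair along those of the Bapx1 embryo pair, in windows of 500 kb, until they matched best. A clear match was found for 3652 Sox9 peaks and none for 70, and 96.0% of the matched peaks had to move by more than 1 kb. An AT-rich Sox sequence (NNCAANG with A or T at each N, either strand) stood within 50 bp of 15.5% of the deposited Sox9 summits and of 35.2% after they were moved, against 13.7% of windows 500 bp to either side of the moved summits. Displacement was clear at every measured point of the 7 member windows. It ranged from 3.16 kb at Sox10 to 7352 kb at Sox6. Coordinates of Sox9 peaks are given here as in their list, and distances to genes are those after the move.

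Most Sox9 peaks in the member windows lay at Sox5 and Sox6. After the move, 30 Sox9 peaks had their summit in a member window, 12 of them at Sox5, 11 at Sox6, 3 at Sox8, 3 at Sox10 and 1 at Sox11. Sox4 and Sox12 had none. Thus 5 of 7 members had a Sox9 peak, beside 28.0% of all protein-coding genes. Per Mb of window the members held 10.2 Sox9 peaks (95% interval 6.87 to 14.5), and the genome held 1.38. By family the density was 11.97 per Mb for the SoxD members (7.59 to 18.0), 14.5 for the SoxE members (5.31 to 31.5) and 1.64 for SoxC (0.0414 to 9.12). The intervals of all 3 families overlap.

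A long gene offers more room for peaks, so Sox5 and Sox6 were set beside genes at least as long as Sox6. The annotation has 151 such genes, with a median of 1 Sox9 peak. Among them 2, with Sox5, had as many as the 12 peaks of Sox5, and 4, with both Sox5 and Sox6, had at least the 11 of Sox6. Over all 22225 genes, 3 had at least 12 Sox9 peaks and 5 had at least 11. Every listed peak was counted here, weak and adjoining ones included.

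The embryo list of Bapx1 had 7 summits in the member windows, 2 each at Sox5, Sox6 and Sox10 and 1 at Sox8, and no SoxC gene had one. Thus 4 of 7 members had an embryo Bapx1 peak, beside 25.2% of all genes. Among the 151 genes at least as long as Sox6, 42 had at least 2, these SoxD genes included, and the median was 1. Over all genes 1321 had at least 2, as many as Sox10. The 7 summits amount to 2.38 per Mb (0.955 to 4.89) against 1.06 in the genome, and the interval holds the genome's value. The interval of SoxE, 7.24 per Mb (1.49 to 21.2), lies above it, as does that of Sox10 alone, 9.54 per Mb (1.16 to 34.5), whose 2 peaks stand at the starts of other genes. In NIH3T3 the windows held 34 Bapx1 summits, 19 at Sox5, 5 at Sox6, 1 at Sox10, 2 each at Sox4 and Sox11 and 5 at Sox12, and none at Sox8. Here 6 of 7 members had a peak, beside 81.0% of all genes, which is close to the background of this large list. The interval of the density, 11.5 per Mb (7.99 to 16.1), also holds the genome's 8.74, and that of Sox5 alone, 16.5 per Mb (9.92 to 25.7), lies above it. Among the 151 long genes, 15 had at least the 19 NIH3T3 peaks of Sox5 and 115 at least the 5 of Sox6.

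**Figure D1:**
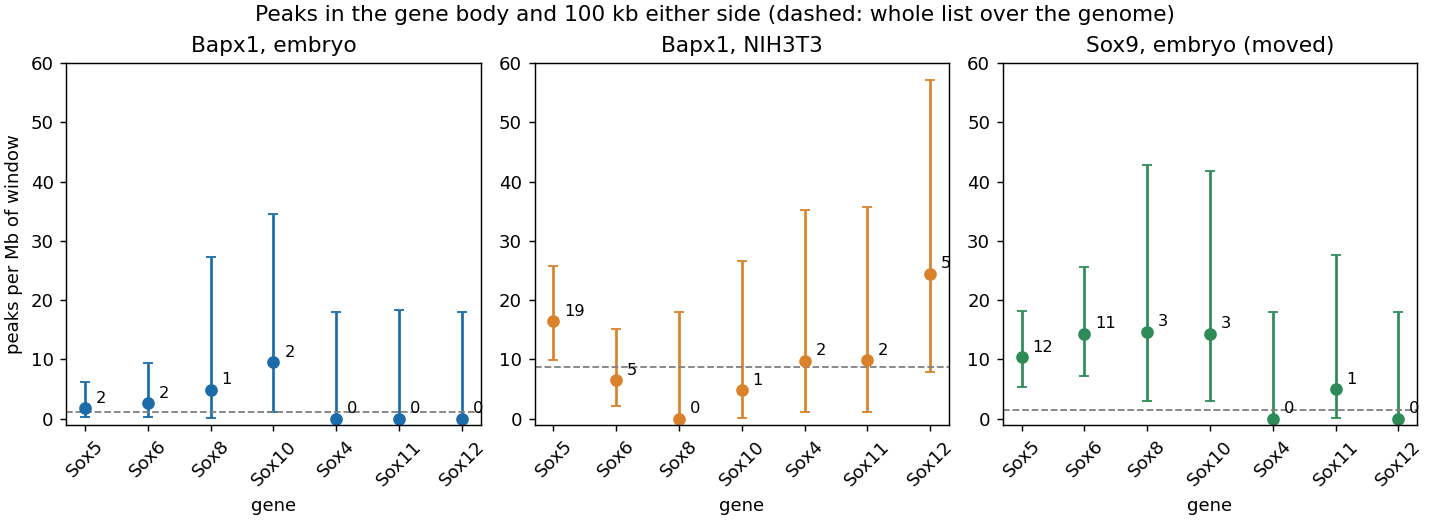
Peaks per Mb of window (y axis) for the 7 genes (x axis) in the 3 lists, with exact 95% Poisson intervals as bars and the number of peaks beside each point. The dashed lines show the density of the whole list, at 1.06, 8.74 and 1.38 peaks per Mb from left to right; intervals above the line are those of Sox10 in the embryo panel, Sox5 in the NIH3T3 panel, and Sox5, Sox6, Sox8 and Sox10 in the Sox9 panel.

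The sequences at the summits of the embryo Bapx1 list are shown because they are the sites called as Bapx1 peaks in tissue. Their false discovery rates in the authors' list were 18.5% to 68.7%. Each is read from the plus strand of mm9 (NCBIM37) within 50 bp of the summit, and capitals mark the Bapx1 motif TGAGTG or TAAGTG, which reads CACTCA or CACTTA on the other strand. At the second Sox6 site and the Pick1 site the window touches an annotated untranslated exon, so 30 bases around the motif are given.
Sox5 intron, 784 kb downstream of the first start, chr6:143946451-143946551: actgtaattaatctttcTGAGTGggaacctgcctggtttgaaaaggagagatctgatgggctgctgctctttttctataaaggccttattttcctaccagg
Sox5 intron, 482 kb, chr6:144248197-144248297: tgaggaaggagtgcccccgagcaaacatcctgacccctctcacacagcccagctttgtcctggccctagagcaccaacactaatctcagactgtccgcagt
Sox6 intron, 544 kb, chr7:122637950-122638050: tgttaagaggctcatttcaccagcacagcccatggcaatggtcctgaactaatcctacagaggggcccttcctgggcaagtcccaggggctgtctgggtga
Sox6 untranslated exon, 214 kb, chr7:122967914-122967943: aaaggcacaaatCACTCAcacgaagtagct
Sox8, between genes, 20.5 kb, chr17:25687049-25687149: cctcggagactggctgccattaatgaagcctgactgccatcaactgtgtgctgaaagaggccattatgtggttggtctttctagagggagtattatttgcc
Sox10 window, beside the Ankrd54 start, chr15:78893440-78893540: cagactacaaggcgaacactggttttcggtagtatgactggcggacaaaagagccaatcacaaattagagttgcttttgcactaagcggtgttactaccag
Sox10 window, beside the Pick1 start, chr15:79059533-79059562: caaccgcgggccTAAGTGgtccccagagtg

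The motif stood within 50 bp of 3 of the 7 embryo summits, which is 42.9% (9.90 to 81.6), beside 31.3% of the whole embryo list and 10.5% of windows 500 bp away. In the NIH3T3 list it stood at 29 of 34 member summits, or 85.3% (lower limit 68.9), beside 64.4% of that list and 10.7% of its flanks. The sequences of the strongest NIH3T3 sites at Sox5, Sox6, Sox10 and Sox11 are shown because the motif is most frequent in that list. At the strongest sites of Sox4 and Sox12 the motif was not among the 101 bases.
Sox5 intron, 471 kb downstream of the first start, chr6:144259579-144259679: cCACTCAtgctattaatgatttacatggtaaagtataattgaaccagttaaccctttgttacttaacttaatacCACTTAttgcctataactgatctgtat
Sox6 intron, 158 kb, chr7:123024651-123024751: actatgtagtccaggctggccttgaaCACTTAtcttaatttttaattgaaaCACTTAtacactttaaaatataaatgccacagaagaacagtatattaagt
Eif3l intron, 80.9 kb downstream of Sox10, chr15:78913970-78914070: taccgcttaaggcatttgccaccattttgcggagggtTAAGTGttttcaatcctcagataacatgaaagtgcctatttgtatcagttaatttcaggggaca
Between genes, 71.6 kb upstream of Sox11, chr12:28099151-28099251: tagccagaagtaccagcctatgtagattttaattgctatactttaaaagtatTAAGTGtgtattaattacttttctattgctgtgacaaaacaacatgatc

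The Sox sequence stood within 50 bp of 8 of the 30 moved Sox9 summits, 7 of the 34 NIH3T3 summits and none of the 7 embryo Bapx1 summits. Over the whole lists it stood at 35.2%, 14.6% and 10.5%. The Bapx1 motif stood at 3 of the 30 Sox9 summits, beside 10.4% of all Sox9 summits.

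Sox5, on the minus strand at chr6:143776945-144730497, spans 954 kb, and all 12 of its Sox9 peaks lay in its introns. Of these, 10 lay beyond the middle of the gene towards the 3′ end and 2 just before the middle, and the first stood 469 kb downstream of the most 5′ start. The NIH3T3 Bapx1 peaks were spread otherwise, with 2 upstream of the gene, 11 before its middle and 6 after it. Both embryo Bapx1 peaks were beyond the middle. The annotation gives 14 Sox5 transcripts, of which 8 are protein-coding, and the first coding start lies 572 kb downstream of the most 5′ start, in the part that holds the Sox9 peaks.

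The strongest Sox9 peak of Sox5 (listed at chr6:143996351-143996860, 742 kb downstream) ranked 35 of the 3652 by significance. It had 86 ChIP tags and a fold enrichment of 74.0 in the authors' list, at a false discovery rate (FDR) of 0%, which MACS takes from the peaks it calls with ChIP and control exchanged. Within 200 bp of its summit the recount gave 82 Sox9 tags and 1 IgG tag, a scaled ratio of 85.5 (14.9 to 3418). The Bapx1 libraries did not share it, with 3 Bapx1 and 2 wildtype S-peptide tags in the embryo and 2 Bapx1 and 4 V5 tags in NIH3T3. A Bapx1 motif nevertheless stood within 50 bp of the moved summit.

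Another 4 Sox5 peaks had a low FDR. The peak at chr6:144221323-144222292 (517 kb) had the most tags, 110, at an FDR of 0%, with 66 Sox9 and 4 IgG tags around the summit. The peaks at chr6:143938312-143938703 (801 kb) and chr6:144013735-144014455 (725 kb) had 57 and 69 tags at an FDR of 0%. The recount gave 57 Sox9 against 1 IgG tag at the former and 54 against 3 at the latter. At both of these Bapx1 in the embryo was above its control, without a listed Bapx1 peak. At 801 kb there were 15 Bapx1 against 3 control tags, a ratio of 4.16 (1.18 to 22.4). At 725 kb there were 19 against 4, a ratio of 3.96 (1.31 to 16.0). The nearest embryo Bapx1 summits were 16.7 and 58.9 kb away. The peak at chr6:144167118-144167484 stood 614 bp upstream of the nearest Sox5 start, in a group that holds coding starts, with 36 Sox9 and 2 IgG tags, a ratio of 18.8 (4.83 to 161), a Sox sequence by the summit and an FDR of 1.13%. There Bapx1 was not above its control, with 17 and 13 tags and a ratio of 1.09 (0.50 to 2.44). The other 7 Sox5 peaks had 10 to 25 tags and an FDR of 20.3% to 100%. Among them, chr6:144269800-144270137 and chr6:144270178-144270427 adjoin. Their windows of 200 bp on either side overlap, so counts pooled over the Sox9 summits hold some tags more than once.

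Of the 7 embryo Bapx1 summits 2 lay within 500 bp of a moved Sox9 summit, at Sox5 and Sox6, beside 8.88% of the whole embryo list. The closer pair was at Sox5. The embryo Bapx1 peak at chr6:144248095-144248317 (mm9, in a Sox5 intron) and the Sox9 peak listed at chr6:144256651-144257139 had their summits 50 bp apart after the move. Within 200 bp of the Bapx1 summit there were 19 Bapx1, 4 wildtype S-peptide, 24 Sox9, 4 IgG, 0 NIH3T3 Bapx1 and 5 V5 tags. The ratio was 3.96 (1.31 to 16.0) for Bapx1 in the embryo and 6.26 (2.15 to 24.8) for Sox9. Both ratios describe sites called as peaks from these same libraries. In NIH3T3 the Bapx1 library had no tag. In the authors' lists these are weak peaks, with an FDR of 53.8% for Bapx1 and 25.2% for Sox9. Neither motif was found within 50 bp of the Bapx1 summit. The nearest transcript start is a Sox5 start 90.2 kb away.

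The other embryo Bapx1 peak of Sox5, at chr6:143946407-143946610, had 15 tags and an FDR of 61.0%. Around it the recount gave 19 Bapx1 and 4 control tags in the embryo, 4 Sox9 and 4 IgG tags, and 0 Bapx1 and 3 V5 tags in NIH3T3. Only the pair from which it was called was high there. The nearest Sox9 summit was 16.7 kb away.

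**Figure D2:**
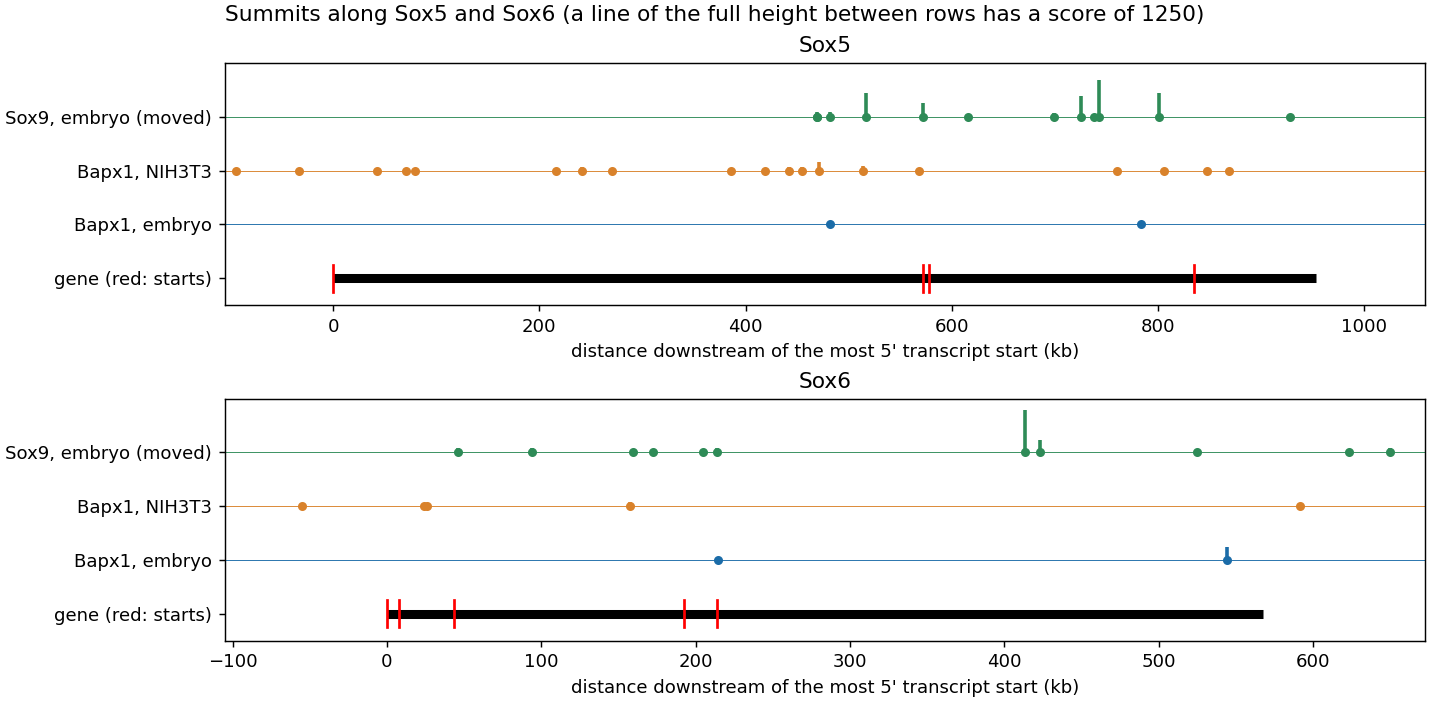
Summits of the 3 lists along Sox5 and Sox6 against the distance downstream of the most 5′ transcript start in kb, with the gene as a black bar and its groups of starts in red; the height of a line is the authors' score, 10 times −log10 (p). The Sox9 peaks of Sox5 begin 469 kb into the gene, while those of Sox6 run from 46.2 to 650 kb, and the tallest line of Sox6 stands at 414 kb with a score of 980.

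Sox6, on the minus strand at chr7:122614858-123182258, spans 567 kb and had 9 Sox9 peaks in its introns and 2 beyond its 3′ end, up to 82.7 kb past it. The nearest annotated start of every one of the 11 was a Sox6 start. The strongest, listed at chr7:115415615-115416573 and 414 kb downstream of the most 5′ start, ranked 22 of 3652, with 121 tags and an FDR of 0%. The recount gave 91 Sox9 tags and 1 IgG tag within 200 bp, a ratio of 94.9 (16.6 to 3788). Bapx1 in the embryo had 18 tags there and its control 4, a ratio of 3.75 (1.23 to 15.2), and the NIH3T3 pair had 1 and 3 tags. A second strong peak, at chr7:115406704-115407346, stood 423 kb downstream with 36 Sox9 and 1 IgG tag and an FDR of 1.63%, and Bapx1 had 10 tags there against 5. The remaining 9 had 10 to 22 tags and an FDR of 19.1% or more, and at each the Sox9 ratio had a lower limit above 1, which is a property of the list because these libraries called it.

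The stronger embryo Bapx1 peak of Sox6, at chr7:122637840-122638238 in the intron 544 kb downstream, had 49 tags, the smallest FDR among the members (18.5%), and rank 65 of 2815. The recount gave 49 Bapx1 tags and 1 wildtype S-peptide tag, a ratio of 40.8 (6.99 to 1645). In NIH3T3 it had 1 Bapx1 and 4 V5 tags, and the Sox9 pair had 3 and 0. It was therefore high only in the embryo Bapx1 library, and the nearest Sox9 summit was 19.3 kb away. No Bapx1 motif stood within 50 bp.

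The weaker one, at chr7:122967801-122968073, lay in an untranslated exon of Sox6, 273 bp downstream of a coding start within the gene, and its sequence holds CACTCA. It had 18 Bapx1 tags against 2, a ratio of 7.50 (1.79 to 66.6), in the embryo. In NIH3T3 there were 4 Bapx1 and 0 V5 tags, and at the summit itself the Sox9 pair had 3 and 3. A Sox9 peak, listed at chr7:115615758-115616138 with 18 tags, stood 363 bp away on the upstream side of that start, with 18 Sox9 against 2 IgG tags, a ratio of 9.38 (2.25 to 83.4). Around this Sox9 summit Bapx1 in the embryo was again above its control, with 15 tags against 2 and a ratio of 6.25 (1.45 to 56.3). The tag counts at both summits share tags, since the windows of 200 bp on either side overlap.

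**Figure D3:**
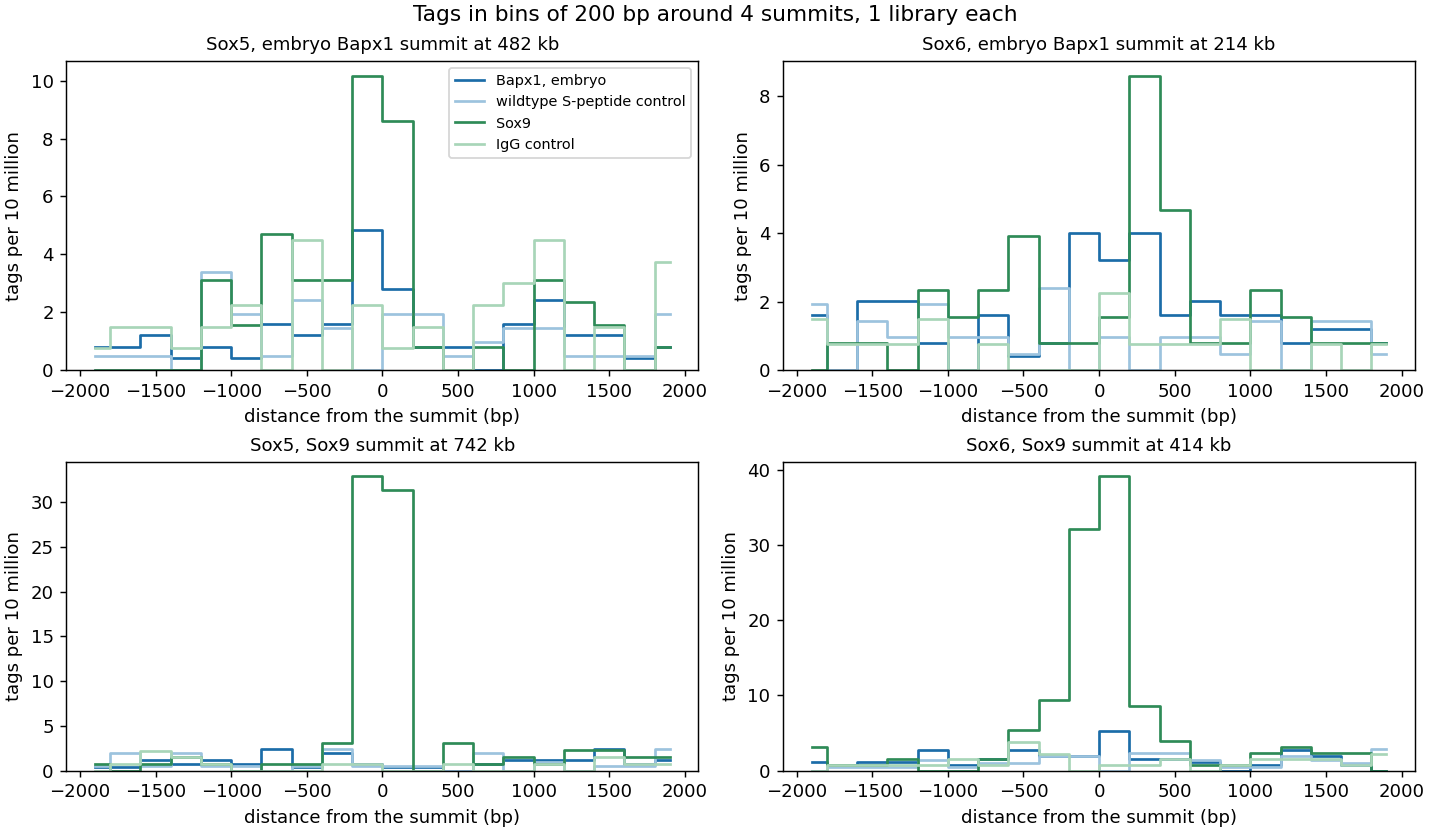
Tags per 10000000 in bins of 200 bp against the distance in bp from 4 summits, for the Bapx1 and Sox9 libraries of the embryo and their controls, 1 library each. At the Sox5 site 482 kb downstream the Bapx1 and Sox9 lines peak together, at the Sox6 site 214 kb downstream the Sox9 line peaks to the right of the Bapx1 summit, and at the strongest Sox9 summits of Sox5 and Sox6 the Sox9 line, with 82 and 91 tags, is far above the others.

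Sox8, on the minus strand at chr17:25702837-25707631, had 3 Sox9 peaks, all outside the gene and upstream of it. The strongest, listed at chr17:25304801-25305387, was 6.80 kb upstream of Sox8 and nearer to the start of Lmf1, a lipase maturation factor gene, at 1688 bp. It had 43 Sox9 and 6 IgG tags, a ratio of 7.47 (3.17 to 21.5), and an FDR of 1.68%. The next, at chr17:25363022-25363482, lay 64.9 kb upstream of Sox8 in an Lmf1 intron, with 35 Sox9 against 5 IgG tags, and the third, at chr17:25391031-25391410, had 17 against 6. At the last of these Bapx1 in the embryo had 15 tags against 3, a ratio of 4.16 (1.18 to 22.4). The Sox8 window had 1 embryo Bapx1 peak, at chr17:25686934-25687296 and 20.5 kb downstream of the most 5′ start, beyond the 3′ end of the gene. It had 29 Bapx1 tags against 1 in the embryo, a ratio of 24.2 (4.01 to 987). The Sox9 pair had 10 and 2 tags at the same place, a ratio of 5.21 (1.11 to 48.9), without a listed Sox9 peak within 27.3 kb. In NIH3T3 there were 1 Bapx1 and 7 V5 tags, and the whole window had no NIH3T3 peak.

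Sox10, on the minus strand at chr15:78985343-78994920, had 3 Sox9 peaks outside the gene. The strongest, listed at chr15:79028853-79029420, stood 37.3 kb upstream in an intron of the predicted gene Gm10863. It had 41 Sox9 tags and 1 IgG tag, a ratio of 42.8 (7.25 to 1729), an FDR of 1.66% and a Sox sequence by its summit. Bapx1 in the embryo had 21 tags there against 6, a ratio of 2.92 (1.14 to 8.83). The other 2 Sox9 peaks, 48.5 kb upstream and 12.4 kb downstream of the start, had 18 Sox9 against 7 IgG tags and 15 against 4, and at neither was Bapx1 past 2-fold with a lower limit above 1. Both embryo Bapx1 peaks of the Sox10 window lay at the starts of other genes. One, at chr15:78893225-78893689, was 167 bp upstream of Ankrd54 with 39 Bapx1 tags and no control tag, which gives a lower limit of 8.40 for the ratio. In NIH3T3 it had 5 Bapx1 tags and no V5 tag, with a lower limit of 1.28, and the Sox9 pair had 5 and 3. The other, at chr15:79059351-79059719, was 44 bp upstream of Pick1, a gene for a scaffold protein of synapses, with 52 against 4 tags and a ratio of 10.8 (3.98 to 41.2). At this site NIH3T3 Bapx1 was above its control too, with 9 against 2 tags and a ratio of 6.30 (1.30 to 59.9). A summit was called past 2-fold in a pair if it had at least 10 tags in the pair, a ratio of 2 or more and a lower limit above 1. The Pick1 site was the 1 of 7 embryo sites called so in NIH3T3, beside 8.38% of all embryo summits, and the Ankrd54 site fell short by its number of tags alone.

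Among the SoxC genes, Sox11 (minus strand, chr12:28025562-28027574) had 1 Sox9 peak, listed at chr12:27897098-27897405 and 31.7 kb downstream of the start. It had 12 Sox9 and 3 IgG tags, a ratio of 4.17 (1.13 to 23.0), at an FDR of 77.7%. Sox4 (minus strand, chr13:29040788-29045582) and Sox12 (minus strand, chr2:152219347-152223782) had no embryo peak of either factor in their windows. A window of their size with a count of 0 allows up to 18.0 peaks per Mb, so a density like that of Sox5 could not be told from none at a single short gene.

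At the embryo Bapx1 summits the Sox9 and NIH3T3 pairs were read as measurements that the choice of sites did not use. Over the 7 summits together the Sox9 pair had 53 and 18 tags, a ratio of 3.07 (1.77 to 5.57), beside 1.64 (1.60 to 1.68) over all embryo summits. The Sox5 site 482 kb downstream gave 24 of these 53 tags. Of the 7, 2 passed 2-fold with a lower limit above 1, at Sox5 and Sox8, beside 10.2% of the list. The NIH3T3 pair had 20 and 21 tags, a ratio of 1.33 (0.69 to 2.58), and its interval holds 1 and the 1.69 of the whole list. The 2 sites of the Sox10 window gave 14 of the 20 Bapx1 tags and 2 of the 21 V5 tags. Against the wildtype S-peptide library in place of V5 the NIH3T3 ratio over the 7 sites was 2.91 (1.43 to 6.00). These sites were called against that library, so this ratio is not free of their choice. The embryo pair itself had 225 and 16 tags, a ratio of 11.7 (7.06 to 20.8), which describes the called sites. Over the whole embryo list this ratio was 3.98 (3.91 to 4.05). At the 7 sites it was 3.93 (3.02 to 5.19) within 500 bp and 5.37 (3.43 to 8.84) against the V5 library.

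**Figure D4:**
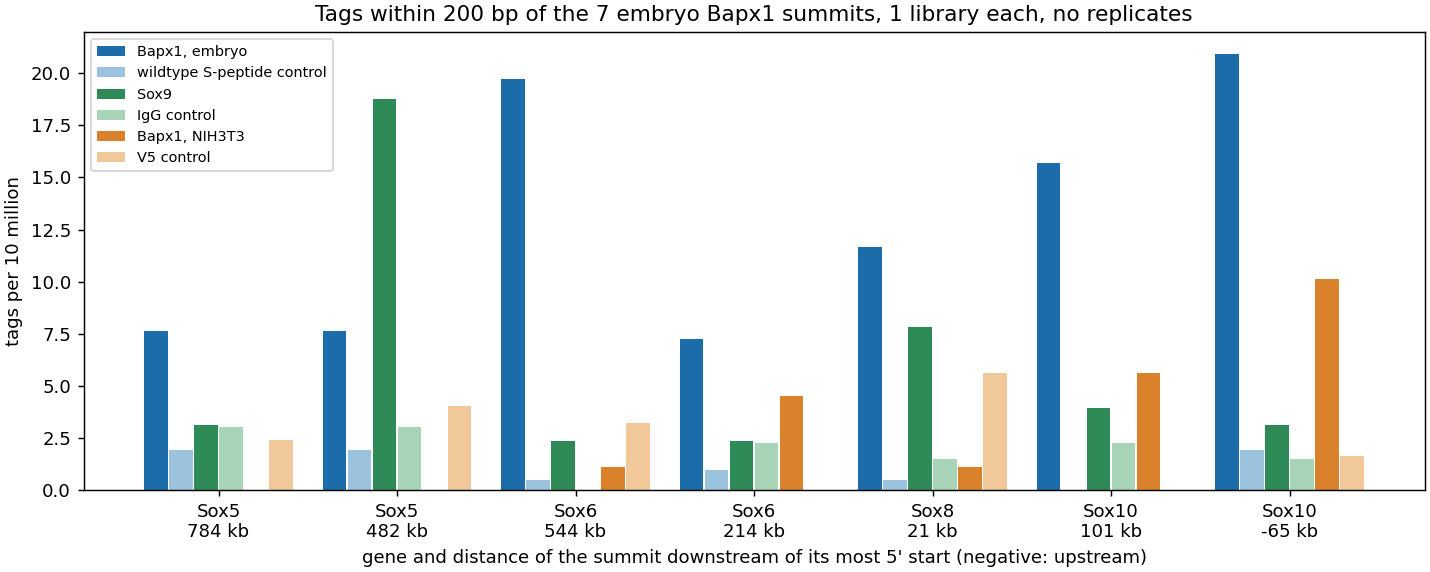
Tags per 10000000 within 200 bp of the 7 embryo Bapx1 summits in the 6 libraries, 1 bar per library and no error bars because there are no replicates. The Bapx1 embryo bar is the tallest at 6 sites, and at the Sox5 site 482 kb downstream the Sox9 bar, from 24 tags, is taller than the Bapx1 bar, from 19 tags.

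In the opposite direction, the Bapx1 embryo pair was read at the 30 moved Sox9 summits. It had 307 and 135 tags, a ratio of 1.89 (1.54 to 2.34), which lies above 1, and the interval holds the 1.59 (1.56 to 1.62) of the whole Sox9 list. Of the 30 summits 8 passed 2-fold, beside 13.3% of the list, 3 each at Sox5 and Sox6 and 1 each at Sox8 and Sox10. The NIH3T3 pair had 44 and 82 tags there, a ratio of 0.75 (0.51 to 1.10), and none of the 30 passed, beside 2.49% of the list. The nearest NIH3T3 Bapx1 peak to any of them was 1.74 kb away, and over the whole Sox9 list 2.33% of summits had one within 500 bp.

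At the 34 NIH3T3 summits neither embryo pair followed. Bapx1 in the embryo had 239 and 177 tags, a ratio of 1.12 (0.92 to 1.37), beside 1.12 over the whole list, and 1 of 34 passed, beside 1.93%. That site, at chr6:144216226-144216487 in a Sox5 intron, had 16 Bapx1 and 4 control tags in the embryo and 16 against 5 in NIH3T3. The Sox9 pair had 120 and 102 tags, a ratio of 1.23 (0.93 to 1.61), beside 1.11 over the whole list. In that pair none passed, beside 0.465% of the list. In their own pair the 34 sites had 467 and 99 tags, a ratio of 6.60 (5.30 to 8.28), beside 7.31 over the whole list. The strongest of them was at Sox5 (chr6:144259462-144259748, 471 kb), with 27 Bapx1 against 5 V5 tags, 2 Bapx1 motifs and an FDR of 0.12%. At Sox11 the peak at chr12:28099063-28099375 had 27 against 6 tags and at Sox4 the one at chr13:29115990-29116280 had 15 against 4. At Sox6 the strongest site, chr7:123024587-123025017 in an intron, had 15 Bapx1 tags and 1 V5 tag, and the next, chr7:123236783-123237133, lay at the start of another gene, 1110004F10Rik, with 12 and 0. The Sox10 window had its single site in an intron of Eif3l, a translation initiation factor gene, at chr15:78913892-78914206 with 19 against 4 tags. At Sox12 the strongest site, chr2:152176365-152176919, had 18 against 6 tags and no Bapx1 motif. Of the 34 sites 14 had a member as the gene with the nearest start, and 28 lay over 25 kb from any start of the member.

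Transcript starts were examined next. Tags within 1 kb of all annotated starts of a gene were summed, and a gene was called past 2-fold if it had at least 10 tags, a ratio of 2 or more and a lower limit above 1. For Bapx1 in the embryo 0 of 7 members passed, beside 1.06% of all genes. Sox5 had 199 Bapx1 and 118 control tags, a ratio with an interval of 1.11 to 1.78, and Sox6 had 180 and 104, a ratio of 1.44 (1.13 to 1.85). The other 5 lay between 0.83 at Sox8 (41 and 41 tags) and 1.21 at Sox10 (32 and 22), with intervals that hold 1. Over all genes with enough tags the median was 1.01, with 5th and 95th percentiles of 0.63 and 1.62. All 7 members lay between those percentiles. Within 500 bp of the starts instead of 1 kb, Sox11 went from 1.08 (0.74 to 1.60) to 2.44 (1.30 to 4.85), and 1 of 7 passed. No share over all genes is at hand for 500 bp, so this count has no background.

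For Bapx1 in NIH3T3 1 of 7 passed, beside 14.9% of all genes. It was Sox4, with 42 Bapx1 and 27 V5 tags and a ratio of 2.18 (1.31 to 3.67). Within 2 kb of the starts its ratio was 1.87 (1.19 to 2.96), below 2 with a lower limit still above 1, and no member passed. Sox8 was low, with 3 against 17 tags and a ratio of 0.25 (0.05 to 0.85), but a start of 2810468N07Rik shares its window, and outside peaks the Sox8 region had a ratio of 0.80 in this pair. Sox5 had 63 and 60 tags, a ratio of 1.47 (1.02 to 2.13), and the other members had between 3 and 27 Bapx1 tags with intervals that hold 1. Over all genes with enough tags the median ratio in this pair was 1.19, with 5th and 95th percentiles of 0.40 and 2.94. The interval of Sox5 holds that median, and the ratio of Sox4 lies between those percentiles. The NIH3T3 counts are the thinnest of the 3 pairs.

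For Sox9 0 of 7 passed, beside 1.60% of all genes, but Sox5 came just below, with 114 Sox9 and 60 IgG tags and a ratio of 1.98 (1.44 to 2.76). Within 500 bp of the starts it had 46 and 34 tags, a ratio of 1.41 with an interval of 0.89 to 2.27 that holds 1. Sox6 followed with 102 and 69 tags, a ratio of 1.54 (1.12 to 2.12), then Sox4 with 1.38 (0.82 to 2.34). The intervals of these neighbours overlap, as do those of Sox11 (0.97), Sox8 (0.94), Sox10 (0.78) and Sox12 (0.56), all of which hold 1.

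The starts of Sox5 differed among themselves. Around the coding starts 572 kb downstream of the most 5′ start there were 61 Sox9 and 7 IgG tags, a ratio of 9.09 (4.15 to 23.5). Around those at 835 kb there were 24 and 7, a ratio of 3.57 (1.49 to 9.82). At the most 5′ start, which belongs to non-coding transcripts, there were 14 Sox9 and 24 IgG tags, a ratio of 0.61 (0.29 to 1.22), and at 578 kb 15 and 22. With the coding transcripts alone Sox5 had 85 Sox9 and 14 IgG tags, a ratio of 6.33 (3.57 to 12.1), and then passed 2-fold. Part of the tags at 572 kb come from the Sox9 peak 614 bp upstream of that group of starts. That peak had 36 Sox9 tags within 200 bp of its summit and was called from this same library. Passing 2-fold therefore follows in part from the calling, and no share over all genes is at hand for coding transcripts alone. Bapx1 at the same coding starts had a ratio of 1.35 (0.90 to 2.06) in the embryo, from 65 and 40 tags, and of 2.68 (1.28 to 5.91) in NIH3T3, from 23 and 12.

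At Sox6 the starts differed less clearly. At its coding start 214 kb downstream there were 35 Sox9 and 8 IgG tags, a ratio of 4.56 (2.08 to 11.4), and 50 Bapx1 and 18 control tags in the embryo, a ratio of 2.31 (1.33 to 4.21). At its other 4 groups of starts the Sox9 ratio lay between 0.82 and 1.27 and the Bapx1 embryo ratio between 0.96 and 1.56. The Bapx1 intervals of all 4 overlap the interval at 214 kb. So do their Sox9 intervals, except at 43.7 kb (0.34 to 1.94). The group at 7.70 kb, which gave the 1.56, shares its window with a start of 1110006G14Rik. The group at 214 kb was the only one among the members where both factors were above 2-fold in the embryo. A Bapx1 and a Sox9 peak called from these same libraries stand within it, so its ratios follow in part from the calling. No share of such groups over all genes is at hand. Both peaks are weak in the authors' lists, with an FDR of 68.7% for Bapx1, the highest of the 7 embryo peaks, and 30.4% for Sox9.

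**Figure D5:**
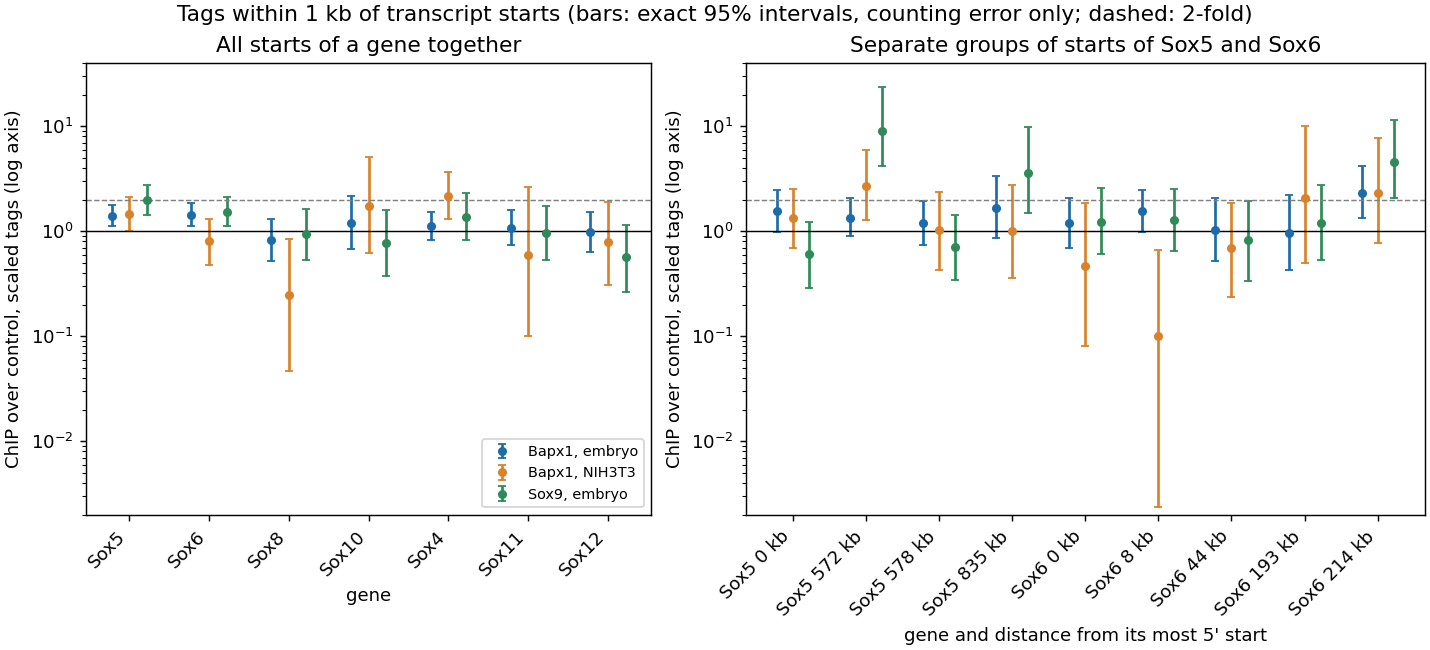
Scaled ratio of ChIP to control tags (log axis) within 1 kb of transcript starts, per gene on the left and per group of Sox5 and Sox6 starts on the right, with exact 95% intervals for counting error as bars. On the left only the NIH3T3 point of Sox4, at 2.18, is above the dashed 2-fold line, while on the right the Sox9 points at Sox5 572 kb, Sox5 835 kb and Sox6 214 kb lie at 9.09, 3.57 and 4.56.

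Other genes were counted for comparison. Among 11 other annotated Sox genes, Sox9 and Sox13 included, 3 had a Sox9 peak, 2 an embryo Bapx1 peak and 10 an NIH3T3 Bapx1 peak. None of them passed 2-fold at its starts in any pair. Among 13 genes known as cartilage targets of Sox9 with Sox5 and Sox6, such as Col2a1 and Acan, 12 had a Sox9 peak, 6 an embryo Bapx1 peak and 13 an NIH3T3 peak. Of these targets 2 passed 2-fold at their starts for Sox9 and 1 for Bapx1 in the embryo. Over all genes 28.0% had a Sox9 peak, 25.2% an embryo Bapx1 peak and 81.0% an NIH3T3 peak. At starts, 1.60% of all genes passed for Sox9, 1.06% for Bapx1 in the embryo and 14.9% in NIH3T3. The median Sox9 ratio at starts was 1.11 for the cartilage targets, 0.97 for the 7 members, 0.73 for the other Sox genes and 0.89 for all 19984 genes with enough tags.

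Low tag counts at single sites and the FDR of the listed peaks set limits to these counts. None of the 7 embryo Bapx1 peaks and 9 of the 30 Sox9 peaks had an FDR of 5% or less, against 32 of the 34 NIH3T3 peaks. No share of the whole lists is at hand for this threshold, so these counts may describe the lists and not the members. Outside the peaks the member windows had ChIP over control ratios of 0.94 to 1.05 for the embryo Bapx1 pair, 0.72 to 1.02 for NIH3T3 and 0.73 to 1.08 for Sox9, and no ratio in the text was corrected for it.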

How the data were processed

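For each of the 6 libraries the authors deposited the positions of 35 bp tags that mapped to a unique place with up to 2 mismatches. For each ChIP library they deposited peaks from MACS against its control (p cutoff 1e-05), with the count of ChIP tags per peak, a score of 10 times −log10 (p), a fold enrichment as a ratio over local background, and an FDR in percent. The labels give 14 cycles of PCR. Tags were counted by their middle, 1 per position and strand, within 200 bp of summits or 1 kb of GENCODE transcript starts on mm9 (NCBIM37), and scaled to tags on chromosomes 1 to 19, X and Y. In the NIH3T3 libraries 2.36% and 6.53% of tags repeated a position and strand, and in the embryo libraries none did.

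Positions of the Sox9 and IgG tags were matched to the Bapx1 embryo pair by cross-correlation of 50 bp bins (at most 3 tags each) over shifts of up to 10 Mb, refined in 10 bp bins. A match was clear if it was 1.5 times the best match elsewhere and the window held at least 1000 tags. This is an estimate from the tags and not a conversion between builds, and no sequence is printed for Sox9 peaks.

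Ratios have exact binomial (Clopper-Pearson) 95% intervals and densities exact Poisson ones. PCR copies are not independent molecules, and 1 library per condition gives no variation between preparations, so no p was computed. The members, lists and rules were chosen with earlier results of these data known. Named sites are all embryo Bapx1 peaks, the stronger Sox9 peaks with the rest in ranges, and the NIH3T3 peaks of smallest p per gene. Alternatives changed the flank, the peak threshold, the window for tags, the scaling, the control, the transcripts and the matching. Displacement, calls and motifs were tested on simulated data. The simulated displacements were constant shifts along a single chromosome, all far smaller than the 7352 kb at Sox6, so a move of that size was not simulated. Tools were Python 3.11.15, numpy 2.4.6, pandas 2.3.3, scipy 1.17.1 and pysam 0.24.0.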

Additional observations from a re-analysis of the deposited data

How the results depend on the processing

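Of 65 recomputed counts, ratios and shares that answer a comparison, 47 stayed within 1.5 times the main count or within the main interval, and 18 moved. The Bapx1 embryo ratio at NIH3T3 summits and the NIH3T3 ratio at embryo summits, whose main intervals hold 1, crossed 1 under an alternative (1.12 to 0.92 at a p of at most 1e-10, and 1.33 to 0.76 within 100 bp). With flanks of 200 kb the embryo Bapx1 peaks rose in number from 7 to 14. At a p of at most 1e-10 they numbered 4, the NIH3T3 peaks 7 and the Sox9 peaks 15. At an FDR of at most 5% the embryo list had 0 in the windows and the Sox9 list 9. For these thresholds no share of the whole lists is at hand. At the deposited coordinates, without the move, 16 Sox9 peaks fell in the windows. At transcript starts, 500 bp on either side put 1 member past 2-fold for Bapx1 in the embryo (Sox11, ratio 2.44, 1.30 to 4.85), 2 kb put 0 for NIH3T3 (Sox4 at 1.87, 1.19 to 2.96), coding transcripts alone put 1 for Sox9 (Sox5), and a fold of 1.5 put 2 (Sox5 and Sox6). These counts at transcript starts have no share over all genes beside them. The Bapx1 embryo ratio at embryo summits was 3.93 within 500 bp, 5.37 with the V5 control and 23.5 at the stricter p. The NIH3T3 ratio there was 2.91 with the wildtype S-peptide control, against which these sites were called. The NIH3T3 ratio at NIH3T3 summits was 8.42 within 100 bp and 3.77 within 500 bp, and the embryo ratio there was 0.92 at the stricter p. The cause was not tested.

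Other windows, bins or libraries for the matching gave 29 or 30 Sox9 peaks and moved those in the member windows by at most 60 bp. Depth is 1 limit: within 200 bp, single sites rest on 0 to 91 tags per library. No paired analysis was possible because each condition has 1 library. Without replicates no library could be left out.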
